A study of Mus musculus with 8 samples.

Results

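The genes described here encode the chaperones and folding enzymes of the endoplasmic reticulum (ER), the machinery that removes misfolded ER proteins, and the sensors and transcription factors of the unfolded protein response. They were taken from the count table by symbol, and 41 of 42 listed genes were found among its 55471 rows. They fall into 5 roles, with 12 chaperones and their cofactors, 7 disulfide isomerases, 5 prolyl isomerases, 10 degradation genes, and 7 sensors and transcription factors. The other prolyl isomerase on the list, Fkbp2, stands in the table under a symbol joined to another gene name. It therefore failed the match by symbol and is given beside the counts, not in them.

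The cells were SV-LECs, a mouse lymphatic endothelial cell line derived from mesenteric adventitial tissue and immortalized with SV40, so all samples carry the SV40 transformation and come from 1 line. Poly(A) RNA was sequenced from 4 untreated samples and from 4 samples exposed to transforming growth factor β1 (TGFβ1) at 10 ng/ml for 72 h. The samples are technical replicates, so each test below refers to the spread between libraries and not between independent cultures. In the study, the comparison served to find transcripts that TGFβ1 changes in lymphatic endothelial cells.

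Proteins destined for secretion enter the ER unfolded. Hsp70 and Hsp90 family chaperones hold them, the lectin chaperones calnexin and calreticulin retain glycoproteins until they fold, disulfide isomerases pair their cysteines, and prolyl isomerases speed the slow turns at prolines, which are abundant in collagens. When unfolded proteins accumulate, the membrane sensors IRE1 (encoded by Ern1), PERK (Eif2ak3) and ATF6 switch on the unfolded protein response. IRE1 splices Xbp1 mRNA, PERK slows translation and favours ATF4, and cleaved ATF6 moves to the nucleus. Gene counts measure total mRNA, so they show neither Xbp1 splicing nor sensor activity.

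The libraries held 18952504 to 26386941 counts, and 3 counts corresponded to 0.113 to 0.162 counts per 1000000 library counts (CPM). Of 13818 genes tested, 5198 (37.6%) were higher and 5251 (38.0%) lower in TGFβ1-treated cells at a false discovery rate (FDR) under 0.05. The FDR is the Benjamini-Hochberg adjusted p of edgeR's likelihood ratio test over all tested genes. As 5018 of the called genes changed by less than 0.5 on the log2 scale, sizes are given beside each call. The lymphatic identity rests on the labels, since the defining endothelial markers Prox1, Lyve1, Pecam1 and Cdh5 had means of at most 0.168 CPM in either group. The summed lymphatic markers (7 genes) came to 412 to 448 CPM untreated and 426 to 440 CPM treated, nearly all from Pdpn, Nrp2 and Flt4.

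Most of the listed ER genes were higher in TGFβ1-treated SV-LECs, but the degradation genes among them were split (4 higher and 4 lower of 9 tested). Of 40 genes that could be tested, 32 (80.0%) were higher, against 37.6% of all genes, and 6 (15.0%) were lower, against 38.0% of all genes. The list was chosen with earlier results of these data known, so this contrast with all genes is only a description. The 6 lower genes were Sil1, Derl1, Derl2, Herpud1, Sel1l and Atf6. Edem2 and Ern1 did not pass the test, and Derl3 was too low to be tested. The median log2 fold change was 0.38 (range -0.67 to 1.50), compared with -0.0064 over all genes tested. In the 32 higher genes, the lowest treated library lay above the highest untreated library, a pattern that 34.7% of all genes showed. The 6 lower genes were separated in the opposite direction, as 35.1% of all genes were. Only Calr, Pdia3 and Fkbp14 exceeded a log2 fold change of 1, which 10.9% of all genes did with a call, and no member fell below -1, as 6.56% of all genes did. Without untreated library 2, Dnajb11 and Creb3l2, both at 0.99 with all libraries, also exceeded 1, making 5. Eif2ak3, at 0.98 with all libraries, reached at most 1.02 over the other settings described below.

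**Figure D1:**
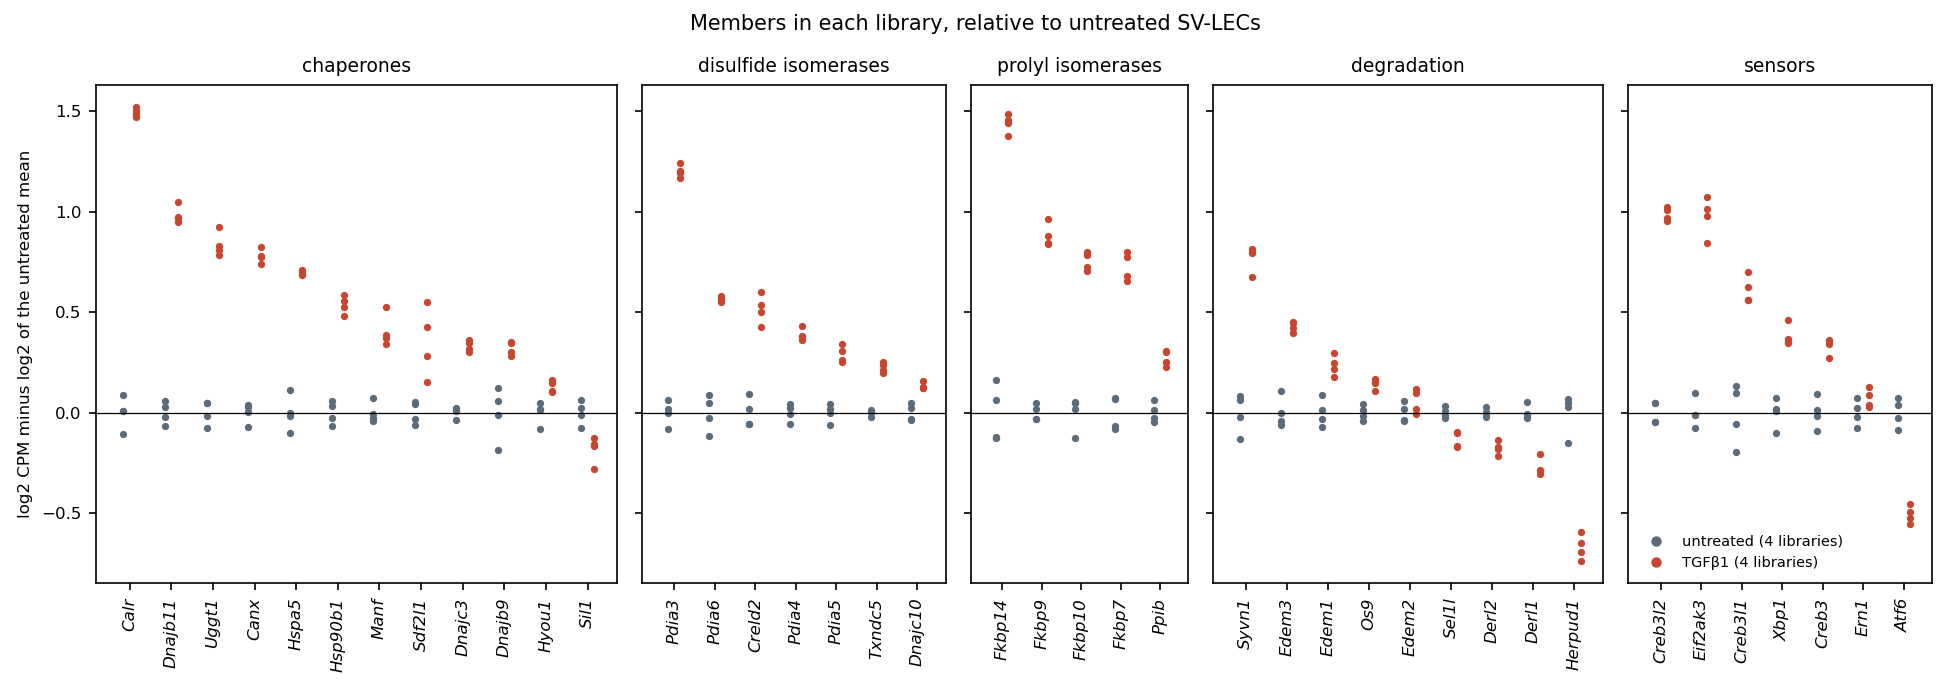
Log2 CPM of each of 40 tested genes in each of 8 libraries, minus the log2 of that gene's untreated mean, by role (gray, 4 untreated libraries; red, 4 TGFβ1-treated libraries). The treated libraries of Calr sit near 1.50 and those of Herpud1 near -0.67, whereas Edem2 and Ern1 overlap with the untreated libraries.

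The summed level of the 41 genes was 9630 to 10270 CPM in untreated cells and 15440 to 15880 CPM in treated cells. Of all raw counts they made up 1.02% untreated and 1.52% treated. The ratio of mean summed CPM, which are normalized, was 1.56. The chaperones accounted for most of this difference, with a summed level of 4568 to 4972 CPM untreated and 7963 to 8273 CPM treated. The summed degradation genes, at 1086 to 1116 CPM and 1115 to 1135 CPM, overlapped between groups (ratio 1.02). In bulk RNA, more cells with a transcript and more transcript per cell cannot be told apart.

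The promoters of several of these genes carry a short element that links them to the unfolded protein response. The ER stress response element (ERSE), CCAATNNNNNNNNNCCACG, is bound by NF-Y at CCAAT and by ATF6 or XBP1 at CCACG. It was searched on both strands of the RefSeq GRCm38.p6 promoter windows, from 250 bases before to 50 bases after each gene start. Of 27025 genes with a window, 37 (0.137%) held it, and 9 of 34 members with a window did (26.5%). The element was first described in several of these genes, so the share follows in part from how such lists are drawn up. The matched sites are shown because they mark which folding genes share the same letters. Each is written 5′ to 3′ in the direction of its gene, with CCAAT and CCACG, or their complements where the site lies on the opposite strand, in capitals.
Hspa5: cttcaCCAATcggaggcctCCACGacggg
Canx: attgaCCAATcaccacgctCCACGaagaa
Pdia6: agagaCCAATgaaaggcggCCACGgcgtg
Dnajc3: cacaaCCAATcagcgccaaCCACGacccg
Syvn1: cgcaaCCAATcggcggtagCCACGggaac
Hsp90b1, upstream site: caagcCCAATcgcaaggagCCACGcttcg
Hsp90b1, downstream site: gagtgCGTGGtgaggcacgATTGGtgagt
Calr: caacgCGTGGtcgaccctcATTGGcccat
Creld2: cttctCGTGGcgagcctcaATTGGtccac
Derl3: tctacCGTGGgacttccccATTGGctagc

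The site of Hspa5 began 65 bases and that of Syvn1 44 bases before the gene start, while that of Calr began 162 bases before it. All 8 tested members with the element were higher in TGFβ1-treated cells, against 37.6% of all genes. Their median log2 fold change was 0.63 (range 0.33 to 1.50). Among the 25 tested members whose window held no exact match, 20 were higher and 3 lower, and the median was 0.33. Sites with a changed base were not searched, and these members include Herpud1 and Dnajb11, which hold the variant described below. Another 7 tested members had no window and fall on neither side, with 4 higher, 3 lower and a median of 0.13. Of 7 tested genes outside the list with the element, 3 were higher and 3 lower, with a median of 0.13. The values are a description, and Pdia3 and Fkbp14 rose by more than 1 with no match in their windows.

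A shorter variant, ERSE-II (ATTGGNCCACG), was present in 12 genes (0.0444%), and the members with it were Herpud1, 52 to 42 bases before the gene start, and Dnajb11, where the match lies after the gene start. Herpud1 was lower and Dnajb11 higher. The promoter of Calr, the gene that rose most, and that of Herpud1, the gene that fell most, are printed from 250 to 11 bases before the gene start with the ERSE and the ERSE-II in capitals. The Calr stretch is chr8:84846942-84847181 on the minus strand, and the Herpud1 stretch is chr8:94386179-94386418 on the plus strand, both GRCm38.p6.
Calr: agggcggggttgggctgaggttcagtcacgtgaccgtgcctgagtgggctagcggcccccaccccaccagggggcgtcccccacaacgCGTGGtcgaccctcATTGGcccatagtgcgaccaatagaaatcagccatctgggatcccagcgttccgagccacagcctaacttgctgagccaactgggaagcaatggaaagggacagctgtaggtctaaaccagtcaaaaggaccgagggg
Herpud1: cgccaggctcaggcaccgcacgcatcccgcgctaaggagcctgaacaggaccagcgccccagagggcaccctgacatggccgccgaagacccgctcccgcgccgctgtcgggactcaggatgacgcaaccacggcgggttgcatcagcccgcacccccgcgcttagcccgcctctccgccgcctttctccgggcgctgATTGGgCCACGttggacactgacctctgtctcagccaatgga

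The TGACGTG core of the unfolded protein response element was found in the windows of Hspa5 and Txndc5 (5.88% of members, 2.22% of genes). TGATGNAAT, a form of the composite element through which C/EBP and ATF4 act on stress genes, matched 293 genes (1.08%). None of the 34 members with a window held this exact string. Forms with another last base were not searched, and the Herpud1 stretch above holds such a form on its opposite strand.

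Of the 12 chaperones and cofactors, 11 (91.7%) were higher, against 37.6% of all genes, and only Sil1 was lower. The median log2 fold change was 0.47, and 6 of them changed by less than 0.5. Calr encodes calreticulin, the soluble lectin chaperone of the ER lumen, and lies on chr8:84841850-84846934 (GRCm38, minus strand). Its level was 561, 606, 640.4 and 606 CPM in untreated libraries 1 to 4 and 1706, 1731, 1674 and 1691 CPM in TGFβ1-treated libraries 1 to 4. The groups were far apart, and Calr showed the greatest log2 fold change of all members (1.50, SE 0.0445, edgeR FDR 1.52e-236). Its membrane-bound relative calnexin (Canx) rose less, with 892 ± 30.0 CPM untreated against 1531 ± 35.9 CPM treated (mean ± SD of 4 libraries each, log2 fold change 0.78). The ratio of Calr to Canx in CPM therefore went from 0.661 to 0.700 in untreated libraries to 1.09 to 1.14 in treated ones. Uggt1, the glucosyltransferase that returns unfolded glycoproteins to this pair, was measured at 308, 322, 322 and 295 CPM untreated and at 554, 591, 546 and 536 CPM treated. All treated libraries exceeded all untreated ones, with a log2 fold change of 0.84 (SE 0.0456, edgeR FDR 3.77e-73).

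Hspa5 (chr2:34771970-34777547, plus strand), which encodes BiP, the ER Hsp70 and the classical readout of ER stress, rose moderately. Its levels were 728, 779, 845 and 772 CPM untreated and 1262, 1274, 1279 and 1255 CPM treated. The treated libraries lay close together and well above the untreated range (log2 fold change 0.70, SE 0.0463, edgeR FDR 4.24e-50). Calr rose more than Hspa5, and the ratio of Hspa5 to Calr in CPM, with no correction for length, was 1.27 to 1.32 in untreated libraries and 0.736 to 0.764 in treated ones. The ER Hsp90 paralog, Hsp90b1, went from 1341 ± 50.9 to 1946 ± 59.7 CPM (log2 fold change 0.54). Part of its exons overlaps other genes (10.3% on the opposite strand, 5.38% on the same strand).

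The BiP cofactors did not move alike. Dnajb11, the J-protein ERdj3 that delivers unfolded clients to BiP, came to 108, 114, 112 and 104 CPM untreated and 215, 212, 215 and 226 CPM treated. The treated libraries all lay near the same higher level (log2 fold change 0.99, SE 0.0438, edgeR FDR 1.61e-109). The J-proteins Dnajb9 (0.32) and Dnajc3 (0.33) and the cofactor Sdf2l1 (0.36) showed smaller log2 fold changes, as did Manf, a secreted stress protein that binds BiP (0.41). The nucleotide exchange factors of BiP differed in direction. Hyou1 rose slightly from 309.6 ± 11.6 to 339 ± 6.72 CPM (log2 fold change 0.13, edgeR FDR 0.00233), a call that was lost under total-count scaling and without a filter on low counts. Sil1 fell from 67.0 ± 2.74 to 59.1 ± 2.77 CPM (log2 fold change -0.18, edgeR FDR 8.17e-04).

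All 7 disulfide isomerases were higher, against 37.6% of all genes, with a median log2 fold change of 0.39. Pdia3 encodes ERp57, the isomerase that works with calnexin and calreticulin on glycoproteins, and lies on chr2:121413775-121438687 (plus strand). Its levels of 678, 716, 751 and 728 CPM in untreated libraries rose to 1613, 1699, 1653 and 1639 CPM in treated ones. It was the disulfide isomerase with the greatest change, and the groups did not overlap (log2 fold change 1.20, SE 0.0420, edgeR FDR 5.78e-174). Pdia6, which acts with BiP and on the sensors IRE1 and PERK, was at 279, 313, 322 and 297 CPM untreated and at 445, 454, 450.3 and 448 CPM treated. The treated libraries were tightly grouped above the untreated ones (log2 fold change 0.57, SE 0.0468, edgeR FDR 7.95e-33). Creld2, a stress-inducible protein with isomerase activity, gave 42.9, 45.1, 47.5 and 42.9 CPM untreated and 64.5, 59.9, 63.1 and 67.7 CPM treated. Here too the groups were separated (log2 fold change 0.52, SE 0.0564, edgeR FDR 1.91e-19).

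The other disulfide isomerases changed less, with log2 fold changes of 0.39 for Pdia4, 0.29 for Pdia5, 0.22 for Txndc5 and 0.13 for Dnajc10, the ER reductase ERdj5. The call of Dnajc10 was lost under total-count scaling. Thus the family shifted in its proportions, and the ratio of Pdia3 to Pdia4 in CPM was 2.23 to 2.32 in untreated and 3.92 to 4.04 in treated libraries. For Txndc5, 11.9% of the exon length overlaps genes on the opposite strand.

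The prolyl isomerases had the highest median of the 5 roles (0.75). All 5 that were matched by symbol were higher, against 37.6% of all genes, whereas Fkbp2, kept outside the counts, was lower. Fkbp14, an isomerase that acts on collagens, lies on chr6:54577604-54597308 (minus strand) and was the second most increased member. It was expressed at 25.9, 25.8, 29.5 and 31.6 CPM in untreated libraries and at 79.0, 77.4, 73.2 and 76.6 CPM in treated ones. The groups lay far apart (log2 fold change 1.44, SE 0.0652, edgeR FDR 1.49e-106). Fkbp9, a multidomain isomerase of the ER, was measured at 367, 388, 379 and 367 CPM untreated and 671, 732, 690.4 and 674 CPM treated. Fkbp10, which encodes FKBP65, a collagen chaperone, was at 385, 383, 376 and 339.9 CPM untreated and at 613, 605, 645 and 638 CPM treated. Neither gene overlapped between groups, and their log2 fold changes were 0.88 for Fkbp9 (SE 0.0423, edgeR FDR 6.70e-94) and 0.75 for Fkbp10 (SE 0.0475, edgeR FDR 4.67e-55).

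Fkbp7, a lower expressed paralog, rose by 0.73 from 18.2 ± 1.05 to 30.2 ± 1.51 CPM. The cyclophilin Ppib, a subunit of the collagen prolyl 3-hydroxylase complex, showed a smaller log2 fold change of 0.27, and 25.0% of its exon length overlaps Snx22 on the opposite strand. Fkbp2, under its joined symbol, went the other way, from 41.9 ± 1.22 to 33.3 ± 2.53 CPM (log2 fold change -0.33, SE 0.0613, edgeR FDR 1.94e-07).

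**Figure D2:**
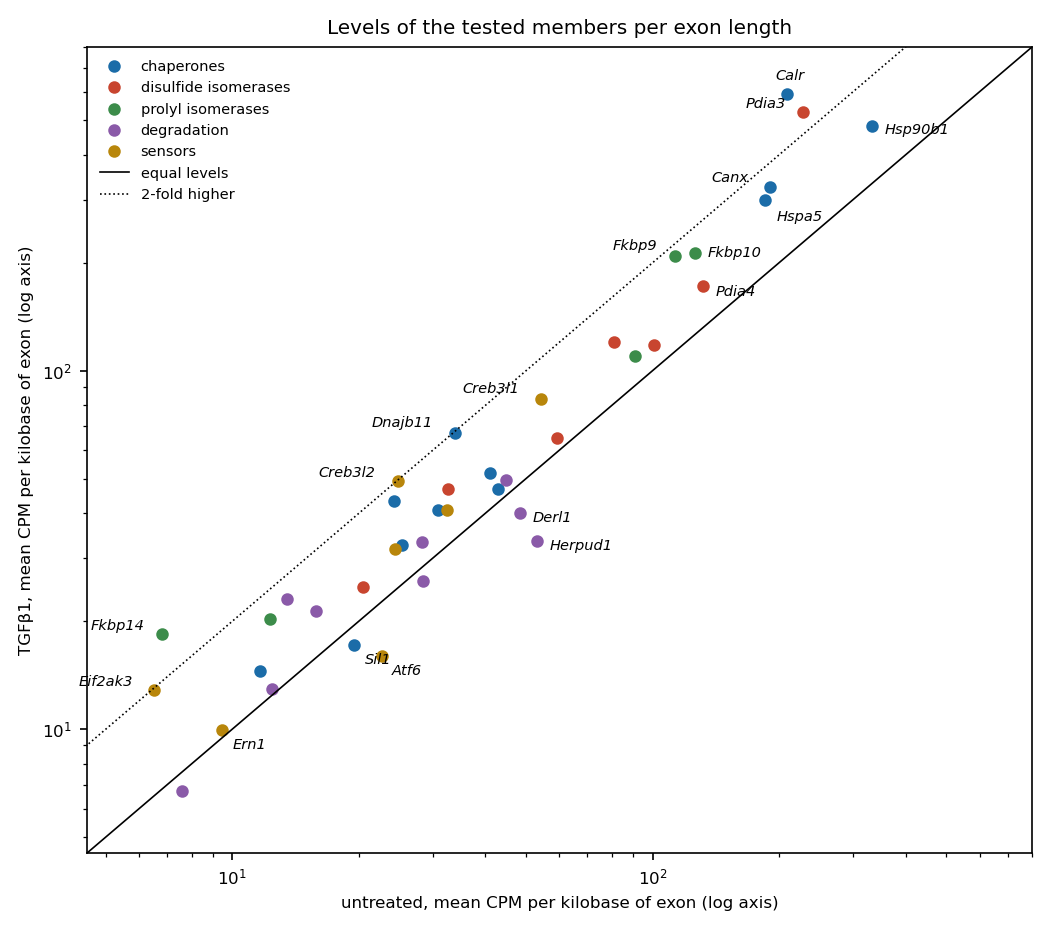
Mean CPM per kilobase of exon in untreated (x) and TGFβ1-treated (y) cells for 40 tested genes, on log axes, colored by role. Calr rises from 209 to 591 and Pdia3 from 229 to 526, above the dotted 2-fold line, while Atf6, Herpud1 and Derl1 lie below the line of equal levels.

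Levels of different genes can only be compared per length. The length used covers all annotated exons of a gene, so it can exceed that of the transcript present and lower a gene's rank. Among the members, by mean CPM per kilobase of exon, Hsp90b1 ranked first in untreated cells (333), followed by Pdia3 (229), Calr (209), Canx (190.0) and Hspa5 (185). In treated cells, Calr ranked first (591), followed by Pdia3 (526), Hsp90b1 (483), Canx (326) and Hspa5 (299.7). The same 5 members led in both groups, but the glycoprotein folding pair Calr and Pdia3 moved ahead of Hsp90b1. P4hb, a disulfide isomerase outside the members, lay above all of them, at 437 untreated and 770 treated.

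Of 9 tested degradation genes, 4 (44.4%) were higher, 4 (44.4%) lower and 1 not called, near the shares over all genes (37.6% and 38.0%), and the median log2 fold change was 0.05. Syvn1 encodes HRD1, the ubiquitin ligase at the centre of ER-associated degradation, and lies on chr19:6046576-6053712 (plus strand). Its levels were 69.6, 64.7, 68.6 and 59.9 CPM untreated and 114, 105, 114 and 115 CPM treated. It was the degradation gene that rose most (log2 fold change 0.77, SE 0.0553, edgeR FDR 4.05e-43). Sel1l, the adaptor that stabilizes HRD1, instead fell slightly, from 243 ± 4.28 to 221 ± 6.09 CPM (log2 fold change -0.14). The ratio of Syvn1 to Sel1l in CPM was consequently 0.249 to 0.292 in untreated and 0.465 to 0.534 in treated libraries.

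Herpud1 (chr8:94386438-94395377, plus strand) encodes HERP, a short-lived scaffold of the same complex that is strongly induced by acute ER stress. It was lower after TGFβ1, with 126, 129.7, 128 and 112 CPM untreated and 74.3, 76.5, 79.0 and 82.0 CPM treated. No other member fell as much (log2 fold change -0.67, SE 0.0562, edgeR FDR 1.21e-31). The derlins, which form part of the channel for misfolded proteins, were also lower, with log2 fold changes of -0.27 for Derl1 and -0.18 for Derl2. Derl3 had means of 0.248 CPM untreated and 0.368 CPM treated, near the level of 3 counts, and no difference was detectable at this depth.

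The EDEM proteins trim mannose from misfolded glycoproteins and so mark them for removal. Edem3 was at 96.7, 98.0, 101 and 109 CPM untreated and at 138, 135, 133 and 137 CPM treated, which separated the groups (log2 fold change 0.43, SE 0.0465, edgeR FDR 1.13e-19). Edem1 showed a log2 fold change of 0.24, whereas Edem2 had 43.1 ± 1.39 CPM untreated and 44.8 ± 1.91 CPM treated (log2 fold change 0.05, edgeR FDR 0.352). The lectin Os9, which reads the trimmed glycans, rose by 0.14, a call that was lost under total-count scaling.

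The 3 classical sensors differed from each other. Eif2ak3, which encodes PERK (chr6:70844515-70905245, plus strand), was at 38.8, 38.8, 37.2 and 41.9 CPM in untreated and at 82.3, 77.2, 70.4 and 79.1 CPM in treated libraries. All treated libraries were well above the untreated ones (log2 fold change 0.98, SE 0.0602, edgeR FDR 1.71e-58), and 8.05% of its exon length overlaps another gene. Atf6 (chr1:170704674-170867771, minus strand) was the only lower gene among the sensors, at 209 ± 10.3 CPM untreated and 147 ± 4.20 CPM treated (log2 fold change -0.51, edgeR FDR 1.29e-27). Ern1, which encodes IRE1, had 77.3 ± 3.43 and 81.1 ± 2.57 CPM, overlapping between groups (log2 fold change 0.07, edgeR FDR 0.202). In CPM, the ratio of Eif2ak3 to Atf6 was 0.173 to 0.204 in untreated and 0.494 to 0.543 in treated libraries.

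Xbp1, the transcription factor downstream of IRE1, was measured at 73.7, 83.2, 79.4 and 79.9 CPM untreated and 101, 109, 101 and 102 CPM treated. The rise was modest but exceeded the spread between libraries (log2 fold change 0.38, SE 0.0503, edgeR FDR 1.16e-13). Creb3, Creb3l1 and Creb3l2 encode ATF6-like membrane transcription factors that are released by cleavage in the Golgi, and all 3 rose. Their relatives Creb3l3 and Creb3l4 were too low to be tested. Creb3l2, which drives the secretory machinery in cartilage, had 174, 186, 186 and 174 CPM untreated and 363, 367, 354 and 349.5 CPM treated. Creb3l1, also called OASIS, which acts on collagen genes in bone, had 155, 152, 136 and 123 CPM untreated and 219, 209, 209 and 230.1 CPM treated. Both were separated between groups, with log2 fold changes of 0.99 for Creb3l2 (SE 0.0416, edgeR FDR 2.25e-122) and 0.61 for Creb3l1 (SE 0.0663, edgeR FDR 1.20e-19). Creb3 itself showed a log2 fold change of 0.33, and 20.8% of its exon length overlaps genes on the opposite strand.

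**Figure D3:**
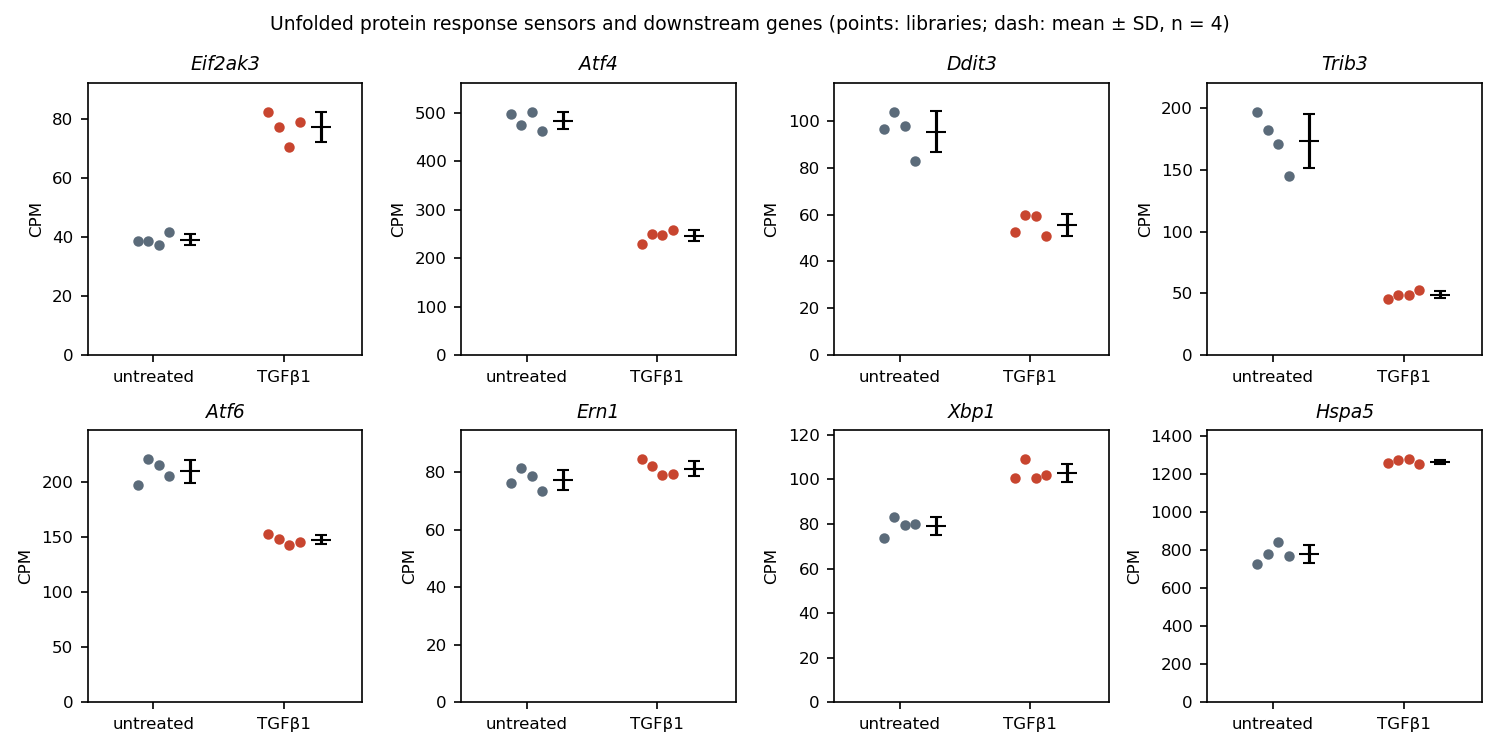
CPM in each library (points) with mean ± SD (dash and bar, n = 4 per group) for sensors and downstream genes, each axis starting at 0. Eif2ak3 rises from 39.1 to 77.2 CPM while Atf4 falls from 484 to 246 CPM and Trib3 from 174 to 49.0 CPM.

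Most listed genes of the PERK and ATF4 branch were lower, whereas Eif2ak3 was higher. PERK activity itself was not measured. Of 12 genes of the PERK and ATF4 branch, 10 (83.3%) were lower and 2 (16.7%) higher, against 38.0% and 37.6% of all genes (median log2 fold change -0.63). Ddit3, which encodes the proapoptotic factor CHOP, fell from 96.5, 104, 98.0 and 83.1 CPM in untreated libraries to 52.4, 59.8, 59.5 and 50.8 CPM in treated ones. All treated libraries were below all untreated ones (log2 fold change -0.78, SE 0.0740, edgeR FDR 5.50e-25). Atf4 had a log2 fold change of -0.97. The greatest declines were those of the pseudokinase Trib3 (-1.83) and of the glutathione-degrading enzyme Chac1 (-1.75), both ATF4 targets, and asparagine synthetase, Asns, fell by 1.30 on the log2 scale. The exceptions were Ddit4, an inhibitor of mTORC1, and Sesn2, a stress-inducible sestrin, with log2 fold changes of 0.92 and 0.13.

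Of 91 tested genes on 6 lists of other pathway genes, the PERK and ATF4 branch included, 40 (44.0%) were higher, 37 (40.7%) lower and 14 not called, and the median log2 fold change was 0.01. These shares were near those over all genes (37.6% and 38.0%). The 15 tested disulfide enzymes outside the members comprised 5 (33.3%) higher and 6 (40.0%) lower genes (median 0.01). P4hb, both the founding disulfide isomerase and a subunit of collagen prolyl 4-hydroxylase, rose from 1250.0 ± 31.4 to 2204 ± 44.4 CPM (log2 fold change 0.82), and the sulfhydryl oxidase Qsox1 rose by 0.73. In contrast, Ero1a, the oxidase that recharges disulfide isomerases, fell from 403 ± 18.6 to 145 ± 4.35 CPM (log2 fold change -1.48), and the thioredoxin-like membrane protein Tmx3 changed by -0.90.

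Among 19 other ER folding factors, 12 (63.2%) were higher and 6 (31.6%) lower, against 37.6% and 38.0% of all genes (median 0.24). Mlec, which encodes malectin, a lectin for early glycans, rose by 1.14, and Prkcsh, the glucosidase II subunit that prepares glycans for calnexin and calreticulin, by 0.62. The glucosidase Mogs (-0.66) and the receptor chaperone Mesd (-0.52) were lower. The oligosaccharyltransferase, which attaches the glycans, had 9 (75.0%) higher and 2 (16.7%) lower of 12 tested genes, against the same shares of all genes (median 0.28). Magt1 (0.77) and Ost4 (0.55) rose most, and Krtcap2 (-0.52) and Stt3b (-0.11) were lower. Stt3b is a catalytic subunit, and the alternative catalytic subunit Stt3a was higher (0.29).

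Of 24 other degradation genes, 12 (50%) were higher and 7 (29.2%) lower, against 37.6% and 38.0% of all genes (median 0.10). Selenos, a selenoprotein of the degradation complex, rose from 27.8 ± 1.20 to 79.4 ± 2.32 CPM (log2 fold change 1.52), and the lectin Erlec1 by 0.60. Erlin1, which takes part in degrading IP3 receptors, and the ubiquitin ligase Rnf139 had log2 fold changes of -0.70 and -0.40. Of 9 other tested sensor and partner genes, none was higher and 6 (66.7%) were lower, against 37.6% and 38.0% of all genes (median -0.24). In 4 of the lower genes the groups did not overlap, as in 35.1% of all genes. The lower genes included Nfya (-0.75), the DNA-binding NF-Y subunit that recognizes the CCAAT part of the ERSE. Also lower was Mbtps2 (-0.46), the protease that cleaves ATF6 within the membrane.

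**Figure D4:**
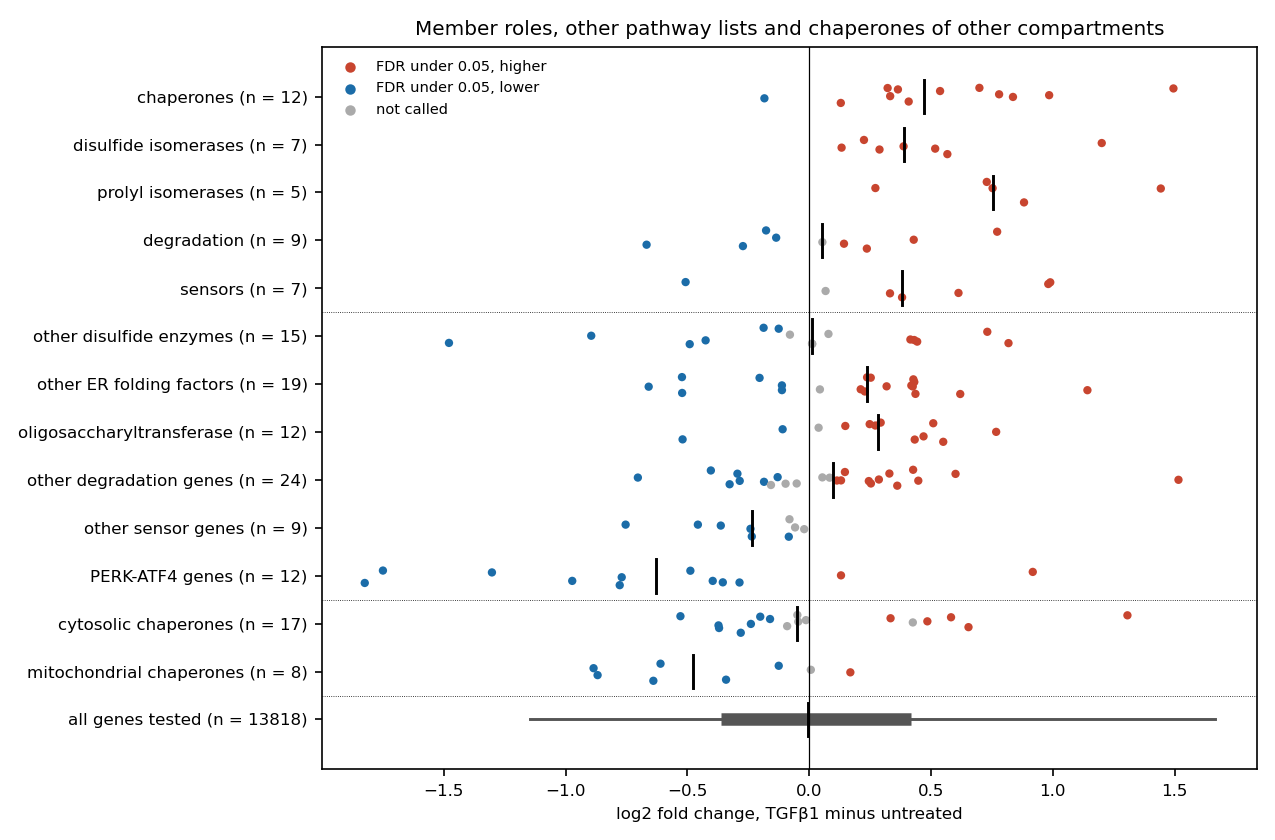
Log2 fold change (TGFβ1 minus untreated) of each tested gene by role or list, with the median as a vertical line (red, higher; blue, lower; gray, not called), and for all 13818 tested genes the median, the middle 50% (thick bar) and the middle 90% (thin bar). Chaperones, disulfide and prolyl isomerases lie mostly to the right, and the PERK and ATF4 genes (median -0.63) and mitochondrial chaperones (median -0.48) mostly to the left.

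Of 17 cytosolic chaperone and heat shock genes, 5 (29.4%) were higher, 7 (41.2%) lower and 5 not called (median -0.05), again near the shares over all genes. Hspa1a (1.31), at 1.03 ± 0.453 CPM untreated and 2.53 ± 0.688 CPM treated, and Dnajb1 (0.65) rose, whereas the co-chaperone Stip1 (-0.53) and the constitutive Hsp70 gene Hspa8 (-0.37) fell. Of 8 mitochondrial chaperones and proteases, 6 (75.0%) were lower and only the co-chaperonin Hspe1 (0.17) was higher (median -0.48). Among all genes, 38.0% were lower and 37.6% higher. Hspa9, the mitochondrial Hsp70, fell from 1257 ± 35.3 to 680.2 ± 10.8 CPM (log2 fold change -0.89), and the protease Lonp1 changed by -0.87.

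Markers of other cell types moved with the treatment. The 10 mural and fibroblast markers summed to 8858 to 11190 CPM in untreated and to 12650 to 14040 CPM in treated libraries. Of 9 tested, 6 (66.7%) were higher, against 37.6% of all genes. The higher ones included the collagen gene Col1a1, from 3459 to 6057 CPM, and the smooth muscle actin gene Acta2, from 264 to 981 CPM. The fibroblast genes Dcn and Pdgfra were lower. Col1a1 and Col1a2 made up most of these sums, and Col1a2 was not called (5497 CPM untreated and 5195 CPM treated). The 6 epithelial markers summed to 34.2 to 40.7 CPM and 38.2 to 45.2 CPM, nearly all from Krt14, which was not called. Krt8 and Krt18 were called higher from low levels, at 0.273 and 0.226 CPM untreated and 1.11 and 1.24 CPM treated. The 6 leukocyte markers summed to 5.88 to 7.82 CPM and 14.9 to 17.0 CPM, nearly all from Cd68, with Ptprc at or near 0. The 8 general endothelial markers came to 11.5 to 13.1 CPM and 22.2 to 24.1 CPM, nearly all from Kdr, with Tie1 and Erg at 0 in all libraries. The part of these markers in the results above was not tested.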

How the data were processed

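Poly(A) RNA libraries from SV-LECs, 4 untreated and 4 treated with TGFβ1, were sequenced by the authors as single-end reads with a stranded kit. The submitters' processing notes name bcl2fastq 2.20.0.422, STAR 2.7.3a and featureCounts 1.5.1 with GRCm38/mm10; the annotation release and the strand setting are not given in the sources used here. The authors deposited raw counts of reads per gene, with no normalization.

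The members and all lists were chosen with earlier results of these data known. Groups were taken from the labels. Differences were tested on the counts with edgeR 4.0.16 (R 4.3.3): filterByExpr on the groups, TMM normalization, and the likelihood ratio test (glmFit, glmLRT), which the study's methods name, with Benjamini-Hochberg FDR under 0.05 over all 13818 genes tested. CPM are TMM-normalized, and SE are those of the fitted log2 fold change. Members were named with all library values if they were among the 3 greatest changes of their role, plus Hspa5, Xbp1 and Ddit3. From each other list, the 2 greatest changes in each direction were named, plus P4hb, Atf4 and Ddit3. Asns, Stt3a and the within-library ratios were chosen after their values were seen. Marker genes were fixed lists.

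Exon lengths, gene positions and overlaps were computed from GENCODE M21 on GRCm38, which may differ from the annotation of the counts. Without a stated strand setting, reads of a gene and of an overlapping opposite-strand gene cannot be told apart. Promoters were RefSeq windows (GRCm38.p6) of 34 members, matched by symbol. Every pair of libraries of 1 group differed by more than sampling noise (chi-square per degree of freedom 2.37 to 7.84). The fit was tested on simulated data. Alternatives were edgeR's quasi-likelihood test, DESeq2 1.42.0, its size factors, total counts, no filter, a filter of 1 CPM in 4 libraries, an FDR of 0.01, a replicate block, a prior count of 2, a test against a log2 fold change of 1 (glmTreat) and leaving out each library.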

Additional observations from a re-analysis of the deposited data

Results flagged for a closer look

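Library 2 of the TGFβ1-treated group stood apart from the other 3 for 4 genes, by a gap to its nearest neighbor that was large against the range of the group. Of 80 groups checked (40 tested genes in 2 groups), 4 were marked in this way, and chance marks about 1 in 20. Dnajc10 was highest in this library at 329.3 CPM, with the others at 322.0 to 323.1 CPM. Derl1 was highest at 139.5 CPM, with the others at 130.0 to 131.6 CPM. Xbp1 was highest at 109.0 CPM, with the others at 100.6 to 101.8 CPM. Syvn1 was lowest at 105.0 CPM, with the others at 113.8 to 115.4 CPM. In each case the library stayed on the same side of the untreated libraries as the rest of its group.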

How the results depend on the processing

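Of 40 tested genes, 35 kept their call and direction in the 16 other settings that give a fold change for each gene. Edem2 and Ern1, not called with TMM, turned to -0.0133 and -0.0003 (log2 fold change) under total-count scaling, which moved the median of all genes from -0.0064 to -0.0735; they stayed uncalled. Under the same scaling Hyou1 (FDR 0.155), Dnajc10 (0.111) and Os9 (0.0778) lost their calls, as did Hyou1 without a filter on low counts (0.0610, the cause was not tested). The counts of higher and lower members per role stayed within 1.5 times their values in these settings. With 1 library left out, the number of members above a log2 fold change of 1 ranged from 3 to 5. The library numbers did not mark pairs (correlations of same-numbered deviations -0.193 to -0.0336), and with a replicate block 32 members were higher and 6 lower, as without it. Differences of the size of 3 counts per library, as for Derl3, are beyond this depth.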
